A study of Mus musculus with 18 samples.

Results

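The genes described here are 10 genes of bile acid synthesis and transport, chosen by name with earlier results of these data known. They are Cyp7a1, Cyp8b1, Akr1d1, Slc27a5, Baat, Slc10a1, Slco1b2, Abcb11, Abcb4 and Abcc2. The tumor table holds 43346 genes, and all 10 passed the filter on low counts that left 18318 genes for testing. RNA sequencing was done on 12 mouse liver tumors raised with myr-AKT, a membrane-bound active AKT, together with either of the YAP forms. YAP-SY carries the changes S127A and Y357F, and YAP-S carries S127A alone, so all 12 tumors share active AKT and the S127A change. The groups, each of 3 tumors, were YAP-SY-CCA (tumors 1, 6 and 8), YAP-SY-Mixed (3, 5 and 9), YAP-S-CCA (3, 4 and 5) and YAP-S-Mixed (2, 7 and 9), where CCA stands for cholangiocarcinoma, a cancer of bile duct cells. In addition, 3 samples of SB1 cells, a cell line labelled YAP-S-CCA, were counted in a separate table. The labels give neither the strain and age of the mice nor the promoter that drives the introduced genes, and no normal liver was compared.

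Hepatocytes make bile acids from cholesterol through a chain of enzymes, join them to taurine or glycine, and pump them across the canalicular membrane into bile. Bile acids that return in portal blood are taken up again across the basolateral membrane, so that the same molecules circulate between liver and gut. Cholangiocytes, which line the bile ducts, modify bile but do not make bile acids by this route, and the genes below are regarded as genes of differentiated hepatocytes.

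Sequencing depth was 30656499 to 130035221 counts in the tumors, and in SB1 cells 25341968 to 30541185 counts. The 10 genes together took 0.267% to 0.661% of a tumor's counts. YAP-SY-CCA tumor 1 lay at the end of the first principal component (38.4% of the variance), at −107 against −90.9 and −55.5 in YAP-SY-CCA tumors 6 and 8, and it had the fewest genes with a count, 18207. Values are given below as CPM, counts divided by the TMM-scaled library and multiplied by 1000000. Tests are edgeR's quasi-likelihood F-tests, adjusted by Benjamini and Hochberg's method over all tested genes, with 0.05 as the threshold.

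In the coordinates of the tumor table (mm10), the enzymes are Cyp7a1 (ENSMUSG00000028240) at 6265612 to 6275633 on chromosome 4, Cyp8b1 (ENSMUSG00000050445) at 121914356 to 121916305 on chromosome 9, Akr1d1 (ENSMUSG00000038641) at 37530173 to 37568815 on chromosome 6, Slc27a5 (ENSMUSG00000030382) at 12988346 to 12998192 on chromosome 7 and Baat (ENSMUSG00000039653) at 49489422 to 49506557 on chromosome 4. The carriers are Slc10a1 (ENSMUSG00000021135) at 80953185 to 80968079 on chromosome 12 and Slco1b2 (ENSMUSG00000030236) at 141629518 to 141686646 on chromosome 6, and the pumps are Abcb11 (ENSMUSG00000027048) at 69238282 to 69342616 on chromosome 2, Abcb4 (ENSMUSG00000042476) at 8893721 to 8959225 on chromosome 5 and Abcc2 (ENSMUSG00000025194) at 43782192 to 43840740 on chromosome 19.

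Promoter sequences were matched for 7 of the 10 genes in a RefSeq table of build GRCm38.p6, each window running from 250 bases before to 50 bases after a start site. Windows of 4 genes are shown. They are those of the 3 genes that stayed past the threshold when tumors were scaled to hepatocyte RNA (Slc10a1, Slco1b2 and Abcb11, below) and that of Cyp8b1, which did not. Slc10a1 had a second window, which is not shown. Capitals mark the motifs searched on both strands: AGGTCA (a core motif of nuclear receptors, written TGACCT where it lies on the other strand), CAAAGTC (core of an HNF4A site), GTTAAT (part of an HNF1 site) and TATAAA (core promoter box). The windows lie at chr12:80968030-80968329 on the minus strand for Slc10a1, chr6:141629268-141629567 on the plus strand for Slco1b2, chr2:69342567-69342866 on the minus strand for Abcb11 and chr9:121916256-121916555 on the minus strand for Cyp8b1.
Slc10a1: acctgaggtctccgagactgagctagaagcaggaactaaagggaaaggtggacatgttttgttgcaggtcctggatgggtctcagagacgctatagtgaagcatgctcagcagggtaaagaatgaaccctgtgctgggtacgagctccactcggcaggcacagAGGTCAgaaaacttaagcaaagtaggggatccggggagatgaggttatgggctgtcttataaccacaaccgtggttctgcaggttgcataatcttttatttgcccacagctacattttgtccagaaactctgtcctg
Slco1b2: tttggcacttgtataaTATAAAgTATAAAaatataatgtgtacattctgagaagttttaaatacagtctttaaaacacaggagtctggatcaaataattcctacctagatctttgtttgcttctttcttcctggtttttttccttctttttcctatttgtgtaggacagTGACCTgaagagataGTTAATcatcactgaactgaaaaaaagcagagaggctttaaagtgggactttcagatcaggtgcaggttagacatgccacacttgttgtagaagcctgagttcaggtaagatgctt
Abcb11: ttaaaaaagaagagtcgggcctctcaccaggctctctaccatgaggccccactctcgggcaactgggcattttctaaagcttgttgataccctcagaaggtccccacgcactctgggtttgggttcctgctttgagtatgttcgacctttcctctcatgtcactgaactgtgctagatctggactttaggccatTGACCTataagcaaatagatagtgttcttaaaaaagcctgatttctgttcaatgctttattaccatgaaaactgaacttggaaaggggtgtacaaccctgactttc
Cyp8b1: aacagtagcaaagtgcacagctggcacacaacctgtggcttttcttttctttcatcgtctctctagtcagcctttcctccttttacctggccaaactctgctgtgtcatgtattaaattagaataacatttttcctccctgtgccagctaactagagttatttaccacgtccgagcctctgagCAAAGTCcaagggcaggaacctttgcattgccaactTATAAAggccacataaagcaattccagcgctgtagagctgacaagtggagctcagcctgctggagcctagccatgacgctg
AGGTCA stood in the window of 5 of the 7 genes (Slc10a1, Slco1b2, Abcb11, Abcc2 and Akr1d1), against 16.3% of all 32851 promoters in the table. Among these, Abcc2 and Akr1d1 did not pass relative to hepatocyte RNA. A gene was counted if any of its windows held the motif (8 windows for the 7 genes), whereas the shares of all promoters are per window. CAAAGTC stood in 2 of 7, in Cyp8b1 at 67 bases before the start and in a second Slc10a1 window, against 4.44% of all promoters. GTTAAT was found in 1 of 7 (Slco1b2, against 7.1%) and TATAAA in 3 of 7 (Slco1b2, Cyp8b1 and the second Slc10a1 window, against 13.6%). Relative to the start, TATAAA lay at −31 in Cyp8b1 and at −234 and −227 in Slco1b2. In the second Slc10a1 window it lay at −128 on the other strand. The letters CATTCC, which TEAD partners of YAP bind, were in none of the 7 (14.7% of all promoters), nor were CAAGGTC (3.96%) or CAAGGCC (6.19%), which NR5A2 binds. A match describes the letters only, and the absence of one says nothing of the factor.

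The first comparison sets YAP-SY-CCA against YAP-S-CCA and asks what the added Y357F change goes with in tumors labelled as bile duct cancer. All 10 bile acid genes were higher in YAP-SY-CCA, with log2 fold changes of 1.16 to 1.80 (2.23-fold to 3.49-fold) and a median of 1.33, where the median of all tested genes was 0. All 10 passed the threshold; of all tested genes 18.3% passed in that direction. In none of the 10 did the groups overlap, which was also so for 52.6% of all tested genes. The genes of uptake and of bile salt export had the largest differences with Cyp7a1, and the other enzymes the smallest. With libraries scaled by total count alone, 8 of 10 passed (4.15% of all genes passed upwards) and the median of all genes moved by −0.56; Cyp8b1 (0.62, adjusted p = 0.0712) and Slc27a5 (0.61, adjusted p = 0.0862) did not. Of all called genes, 46.8% were higher in YAP-SY-CCA under TMM, 8.61% by total count alone and 1.29% relative to hepatocyte RNA. P-values measure the spread between these tumors, which the labels number but do not state to come from separate animals. In bulk tumors, fewer cells of a type and less RNA per cell cannot be told apart.

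Of the synthesis enzymes, Cyp7a1, the rate-limiting enzyme of the classical pathway, had 225, 181 and 199 CPM in tumors 1, 6 and 8 of YAP-SY-CCA, against 89.5, 52.1 and 49.3 CPM in tumors 3, 4 and 5 of YAP-S-CCA. The lowest YAP-SY-CCA tumor thus lay above 2 times the highest YAP-S-CCA tumor, and the log2 fold change was 1.67 (SE 0.32, adjusted p = 0.00194). Cyp8b1, the sterol 12α-hydroxylase that sets the share of cholic acid, had 513, 537 and 617 CPM in YAP-SY-CCA and 320.2, 219 and 198 CPM in YAP-S-CCA. It rose by 1.18 on the log2 scale (SE 0.29, adjusted p = 0.00762). Akr1d1, the 5β-reductase that gives the steroid ring its bile acid shape, had 213, 240.2 and 206 CPM in YAP-SY-CCA and 93.8, 95.2 and 94.0 CPM in YAP-S-CCA. The YAP-S-CCA tumors were almost equal for this gene, and it had the smallest p of the 10 (log2 fold change 1.22, SE 0.15, adjusted p = 0.000191).

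The enzymes of conjugation followed. Slc27a5, which couples bile acids to coenzyme A, had 1026, 1009 and 1073 CPM in YAP-SY-CCA, a spread of 3.2% of the mean, against 493, 575 and 328 CPM in YAP-S-CCA. Its log2 fold change of 1.16 (SE 0.31, adjusted p = 0.0109) was the smallest of the 10. Without YAP-S-CCA tumor 5, the lowest, Slc27a5 was at 0.95 and its adjusted p at 0.0515, the only call of the 10 that ended when a tumor was left out. Baat, which joins the activated bile acid to taurine or glycine, had 381, 468 and 358 CPM in YAP-SY-CCA and 171, 194 and 141 CPM in YAP-S-CCA, and rose by 1.25 (SE 0.21, adjusted p = 0.000834).

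Both uptake carriers of the basolateral membrane rose. Slc10a1, the sodium-dependent carrier NTCP, had 516, 694 and 613 CPM in YAP-SY-CCA and 199, 192 and 131 CPM in YAP-S-CCA, and its difference was the largest of the 10 (log2 fold change 1.80, SE 0.30, adjusted p = 0.000808). Slco1b2, the mouse carrier of the OATP1B type for bile acids, bilirubin and drugs, had 1134, 2188 and 1295 CPM in YAP-SY-CCA and 513, 579 and 336 CPM in YAP-S-CCA. Tumor 6 stood well above the other 2 YAP-SY-CCA tumors for Slco1b2; the log2 fold change was 1.69 (SE 0.33, adjusted p = 0.00177) and 1.35 without that tumor.

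The 3 pumps of the canalicular membrane rose as well. Abcb11, the bile salt export pump, had 1038, 1398 and 984 CPM in YAP-SY-CCA against 373, 486 and 279.8 CPM in YAP-S-CCA (log2 fold change 1.59, SE 0.29, adjusted p = 0.00137). Abcb4, which moves phosphatidylcholine into bile, had 338, 339.7 and 284 CPM in YAP-SY-CCA against 136, 143 and 106 CPM in YAP-S-CCA (1.32, SE 0.21, adjusted p = 0.000615). Abcc2, the pump of bilirubin glucuronides and other conjugates, had 825, 1470 and 1111 CPM in YAP-SY-CCA against 469.5, 469.1 and 403 CPM in YAP-S-CCA (1.34, SE 0.20, adjusted p = 0.000477). In YAP-SY-CCA, tumor 6 held the most RNA of Abcb11 and Abcc2, as it did of both carriers, while Cyp7a1 and Slc27a5 were lowest there.

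**Figure D1:**
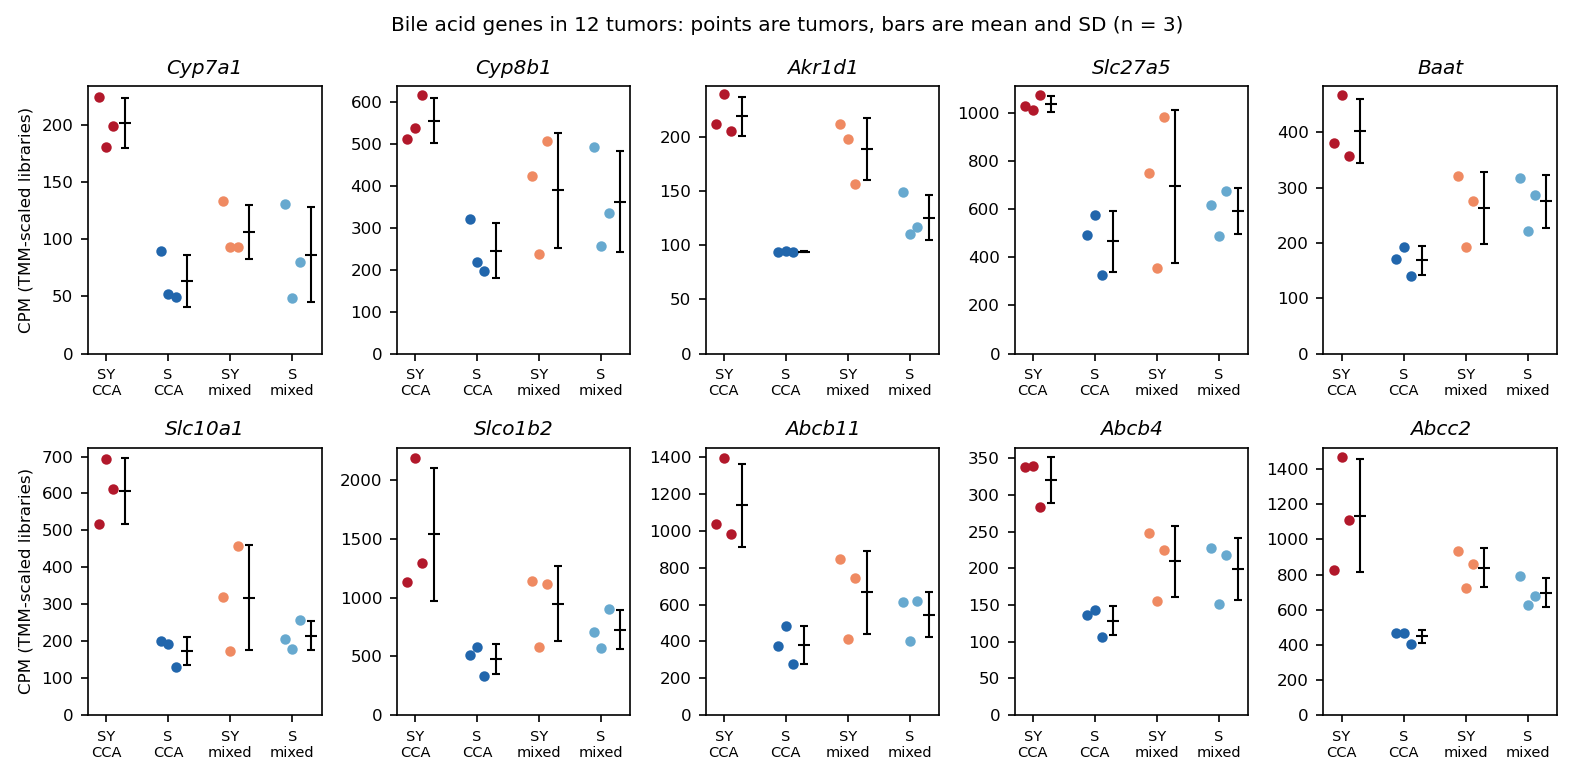
CPM of the 10 genes in every tumor (1 panel per gene, y axes start at 0; SY and S stand for YAP-SY and YAP-S), with the mean and SD of each group of 3 beside the points. In each panel the 3 YAP-SY-CCA tumors lie above all 3 YAP-S-CCA tumors, while the points of the mixed groups overlap except for Akr1d1.

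Set per gene length (RPKM), which allows levels of different genes to be compared, the order in YAP-SY-CCA began with Slc27a5 at 424 ± 13.6 RPKM (SD, n = 3 throughout), Slc10a1 at 363 ± 53.1 and Slco1b2 at 312 ± 115. Then came Cyp8b1 at 285 ± 27.9, Abcb11 at 222 ± 43.7 and Baat at 207 ± 29.8. Among these 6, each pair of neighbours overlapped within 1 SD of the means. Abcc2 at 133 ± 37.9 RPKM lay below them, followed by Abcb4 at 78.7 ± 7.78 and Akr1d1 at 75.4 ± 6.20, a pair that did not differ beyond its spread, and Cyp7a1 was lowest at 48.4 ± 5.33. In YAP-S-CCA, Slc27a5 was again highest at 190.2 ± 51.5 RPKM and Cyp7a1 lowest at 15.3 ± 5.38. Slc10a1 was second in YAP-SY-CCA and, at 104 ± 22.3 RPKM, next in YAP-S-CCA after Slc27a5 and Cyp8b1 (126 ± 33.6).

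The difference in bile acid genes went with a difference in the hepatocyte and bile duct RNA of the same tumors. Summed over 15 genes of proteins that hepatocytes secrete, the range was 175000 to 190100 CPM in YAP-SY-CCA and 67320 to 79930 CPM in YAP-S-CCA. Of the 15, 14 rose (median log2 fold change 0.93). By library size alone 6 of the 15 rose (median 0.37), where 4.15% of all tested genes rose, against 18.3% under TMM. Alb, serum albumin, averaged 105400 ± 8100 CPM in YAP-SY-CCA and 36970 ± 2680 CPM in YAP-S-CCA (SD, n = 3 each). Summed over 17 cholangiocyte markers, the range was 3172 to 4606 CPM in YAP-SY-CCA and 8265 to 11550 CPM in YAP-S-CCA. Of the 17, 13 fell and 0 rose (median −1.88). Without YAP-SY-CCA tumor 6, 8 of the 17 fell, and 3211 of all 18951 tested genes. Krt19, a keratin of bile duct cells, had 15.6, 2.52 and 1.45 CPM in YAP-SY-CCA and 56.7, 88.5 and 35.8 CPM in YAP-S-CCA. Most of the sum was Spp1, osteopontin, at 4074, 2717 and 3032 CPM in YAP-SY-CCA and 7963, 7001 and 10500 CPM in YAP-S-CCA. The group labelled YAP-SY-CCA therefore held the most hepatocyte RNA of the 4 groups and the least RNA of the bile duct markers. Fibroblast markers fell in 8 of 10 (median −2.14). Endothelial markers rose in 2 and fell in 4 of 10, and those of macrophages and lymphocytes rose in 1 and fell in 5 of 10. Over all tested genes 18.3% rose and 20.8% fell, so the rises in these last lists were near or below that share. The part of these cell types in the difference of the bile acid genes was not tested. The scaling that follows uses hepatocyte genes alone, so it cannot apportion the difference among cell types.

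Relative to hepatocyte RNA, the bile acid genes differed less. The summed CPM of the 10 genes came to 3.43%, 4.48% and 3.85% of the summed CPM of the 15 secreted protein genes in YAP-SY-CCA tumors, against 3.65%, 3.76% and 3.07% in YAP-S-CCA tumors. The groups overlapped in this share, although the summed CPM of the 10 genes was 6209, 8525 and 6740 in YAP-SY-CCA and 2858, 3004 and 2066 in YAP-S-CCA. When each tumor was scaled to the mean log2 CPM of those 15 genes, all 10 bile acid genes were still higher in YAP-SY-CCA, with a median log2 fold change of 0.34, and 3 of 10 passed the threshold. Of all tested genes 0.841% passed upwards and 64.3% downwards under that scaling, with a median of all genes of −1.01. Of the 15 secreted protein genes that set the scale, 3 themselves passed upwards and 2 downwards. A share of 3 in 10 is therefore to be read beside 3 in 15 of the reference genes.

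The 3 genes that passed against hepatocyte RNA were transporters. Slc10a1 was at 0.82 on the log2 scale (SE 0.23, 1.77-fold, adjusted p = 0.00597), Slco1b2 at 0.73 (SE 0.26, adjusted p = 0.0225) and Abcb11 at 0.61 (SE 0.22, adjusted p = 0.0221). Cyp7a1, at 0.67 (SE 0.29), did not pass (adjusted p = 0.0564), and the other 6 lay between 0.18 and 0.35. Scaling to 20 periportal and pericentral hepatocyte markers in place of the secreted proteins, a setting chosen after the data were seen, also called 3 genes, again Slc10a1 (0.81), Slco1b2 (0.71) and Abcb11 (0.61), against 0.595% of all genes. Slc10a1 passed whichever CCA tumor was left out (0.67 to 0.95), whereas Slco1b2 and Abcb11 lost the call without YAP-SY-CCA tumor 6 (0.34 and 0.39) and without YAP-S-CCA tumor 5 (0.62 and 0.53), and Abcb11 also without YAP-S-CCA tumor 3 (0.58). Cyp7a1 gained the call without YAP-S-CCA tumor 3 (0.94, adjusted p = 0.0197), and Abcc2 without YAP-SY-CCA tumor 1 (0.56, adjusted p = 0.0159).

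**Figure D2:**
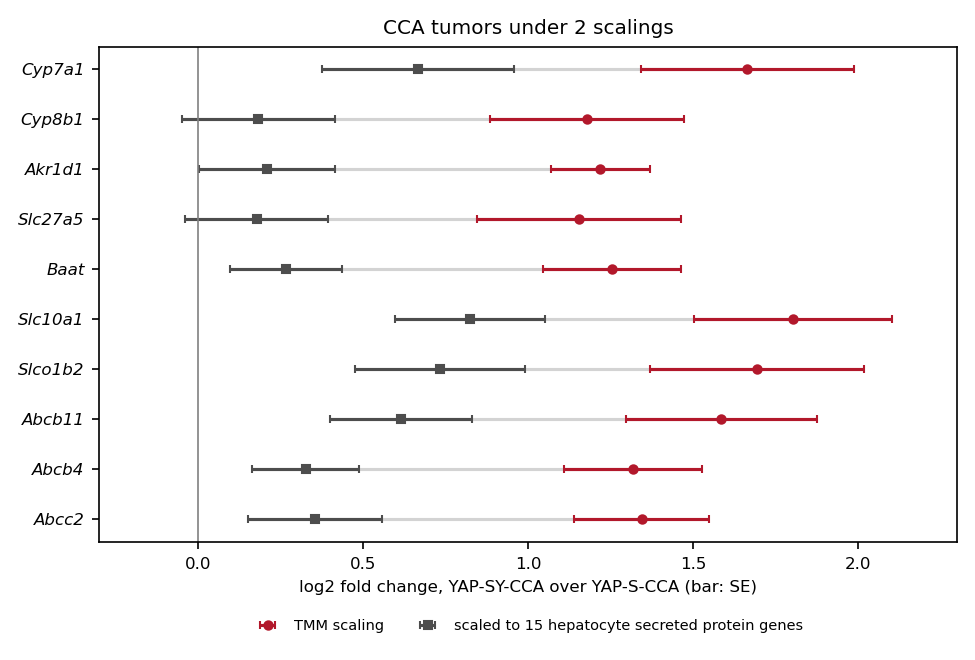
Log2 fold change of YAP-SY-CCA over YAP-S-CCA (x axis, bars are SE) for the 10 genes under TMM scaling (circles) and after scaling each tumor to 15 hepatocyte secreted protein genes (squares). Every square lies left of its circle, and Slc10a1, Slco1b2, Cyp7a1 and Abcb11 lie farthest right under both scalings.

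Genes around the same pathway were counted by list, beside the 18.3% of all tested genes that rose and the 20.8% that fell. By library size alone 4.15% of all tested genes rose and 8064 of 18318 fell. On that scale 5 of the other enzymes rose and 1 fell, and 9 of the other transporters rose and 0 fell. Of the regulators 4 rose and 4 fell, and of the canalicular genes 3 rose and 6 fell. Of 16 other enzymes of bile acid synthesis, 10 rose and 1 fell in YAP-SY-CCA against YAP-S-CCA, with a median log2 fold change of 0.93. When YAP-S-CCA tumor 5 was left out, 6 rose (11.2% of all tested genes). Relative to hepatocyte RNA the median of the 16 was −0.06, and 2 rose and 3 fell. Of all tested genes 0.841% rose and 64.3% fell under that scaling. Slc27a2, which activates the side chain for shortening, averaged 1492 ± 162 CPM in YAP-SY-CCA and 482 ± 85.2 CPM in YAP-S-CCA (log2 fold change 1.63, adjusted p = 0.000265). Slc27a2 also passed relative to hepatocyte RNA (0.64, adjusted p = 0.00311). The peroxisomal enzymes of that shortening, Acox2 (0.87, adjusted p = 0.000817), Hsd17b4 (0.94, adjusted p = 0.000847) and Scp2 (1.17, adjusted p = 0.00113), rose on the TMM scale, but relative to hepatocyte RNA they lay at −0.13, −0.05 and 0.18 without passing. The gene that fell, Ch25h, which makes 25-hydroxycholesterol, had 32, 7 and 28 counts in YAP-SY-CCA and 282, 204 and 122 in YAP-S-CCA, a ratio of 0.149 per total count (95% counting interval 0.114 to 0.192). On the TMM scale its log2 fold change was −2.24 (0.212-fold, adjusted p = 0.00641), and −1.84 without YAP-SY-CCA tumor 6. The deposited tumor counts were corrected by a method not given in the sources used here, so counting intervals on low counts, here and below, may be affected.

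Of 19 measured transporters outside the 10 genes, 13 rose and 0 fell (median 0.95, or −0.04 relative to hepatocyte RNA). Against hepatocyte RNA 4 of the 19 rose and 1 fell, where 0.841% of all tested genes rose and 64.3% fell. Abca1, the exporter of cholesterol to apolipoproteins, had 312, 402 and 345 CPM in YAP-SY-CCA and 166.5, 159.9 and 145 CPM in YAP-S-CCA, without overlap (log2 fold change 1.17, adjusted p = 0.00016). Atp8b1, a flippase that keeps the lipid layers of the canalicular membrane asymmetric, rose 2.0-fold on this scale (adjusted p = 0.00057), and its partner subunit Tmem30a rose by 1.05 on the log2 scale (adjusted p = 0.000479). Relative to hepatocyte RNA, Abca1, Atp8b1 and Tmem30a lay between 0.01 and 0.17 without passing.

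Of 20 measured regulators of bile acid genes, 11 rose and 2 fell (median 0.60). Relative to hepatocyte RNA their median was −0.43, and 0 rose and 7 fell, where 64.3% of all tested genes fell. Nr1h4, the bile acid receptor FXR, had 179, 192 and 187 CPM in YAP-SY-CCA and 90.5, 88.8 and 86.2 CPM in YAP-S-CCA (log2 fold change 1.07, adjusted p = 0.000247), the groups being far apart and narrow. Klb, the co-receptor through which the gut hormone FGF15 lowers bile acid synthesis, rose by 1.51 (adjusted p = 0.000991), and Hnf4a, a main transcription factor of hepatocytes, by 1.09 (adjusted p = 0.00143). The 2 that fell are receptors that also bind bile acids. Gpbar1, the cell surface receptor TGR5, had 0, 0 and 2 counts in YAP-SY-CCA and 148, 97 and 59 in YAP-S-CCA, a ratio of 0.00889 per total count (95% counting interval 0.00107 to 0.0324). Vdr, the vitamin D receptor, had 4, 0 and 1 counts in YAP-SY-CCA and 122, 201 and 89 in YAP-S-CCA (ratio 0.0164, 95% counting interval 0.0053 to 0.0386). Both fell under every scaling tried.

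Of 11 genes that organise the bile canaliculus, 3 rose and 1 fell (median 0.15). Relative to hepatocyte RNA their median was −0.86, and 1 rose and 7 fell, again beside 64.3% of all tested genes that fell. Ceacam1, an adhesion protein of the canalicular membrane, had 261, 287 and 236 CPM in YAP-SY-CCA and 86.4, 107 and 77.5 CPM in YAP-S-CCA (log2 fold change 1.53, adjusted p = 0.000107) and also passed relative to hepatocyte RNA (0.54, adjusted p = 0.00759). Dpp4, a peptidase of the same membrane, rose by 1.17 (adjusted p = 0.000376) and Rdx, radixin, which anchors Abcc2 in it, by 0.91 (adjusted p = 0.000426), with Rdx at −0.09 relative to hepatocyte RNA.

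**Figure D3:**
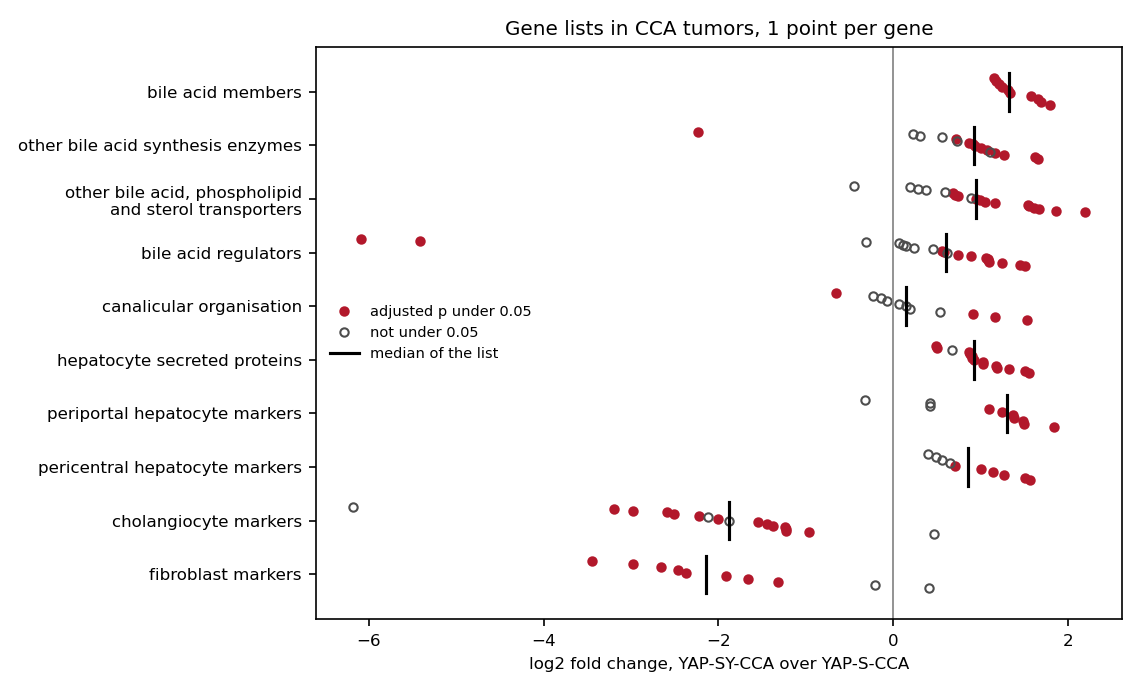
Log2 fold change of YAP-SY-CCA over YAP-S-CCA on the TMM scale for each measured gene of 10 lists (1 point per gene; filled, adjusted p under 0.05; vertical bars, list medians). The 10 bile acid genes lie between 1.16 and 1.80, near the hepatocyte lists and opposite to the cholangiocyte and fibroblast markers.

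The same comparison in mixed tumors, YAP-SY-Mixed against YAP-S-Mixed, called 0 of the 10 genes and 0% of all tested genes. By edgeR's test 551 of 18318 genes had an unadjusted p under 0.05, and DESeq2 called 11 genes (0.0218% of all genes upwards), none of the 10 among them. The log2 fold changes ran from −0.06 (Baat) to 0.59 (Akr1d1), with a median of 0.28. Akr1d1 had 212, 198 and 157 CPM in YAP-SY-Mixed tumors 3, 5 and 9 and 149, 111 and 117 CPM in YAP-S-Mixed tumors 2, 7 and 9. It was the only one of the 10 whose mixed groups did not overlap, as in 8.35% of all genes, and it did not pass (unadjusted p = 0.00188, adjusted p = 0.999).

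Slc10a1 had 320.2, 174 and 458 CPM in YAP-SY-Mixed and 206, 179.9 and 257 CPM in YAP-S-Mixed (log2 fold change 0.57, 95% interval −0.07 to 1.20). Slc27a5 had 747, 355 and 982 CPM in YAP-SY-Mixed and 615, 488 and 673 CPM in YAP-S-Mixed (0.23, 95% interval −0.43 to 0.89). For both genes YAP-SY-Mixed tumor 5 was the lowest of all 6 mixed tumors. Tumor 5 held 41% to 82.2% of the mean of YAP-SY-Mixed tumors 3 and 9 for 9 of the 10 genes, and 107% for Akr1d1. The same tumor held the most RNA of cholangiocyte markers, a sum of 17220 CPM against 8207 and 4767 CPM in YAP-SY-Mixed tumors 3 and 9, nearly all of it Spp1 at 16190 CPM. Without tumor 5 the log2 fold changes of the 10 genes were still uncalled, and Baat turned to 0.12. At this spread the intervals of Slc10a1, Slco1b2 and Abcb11 reach up to 1.20, 1.07 and 0.90, so differences of that size in mixed tumors are within their range.

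**Figure D4:**
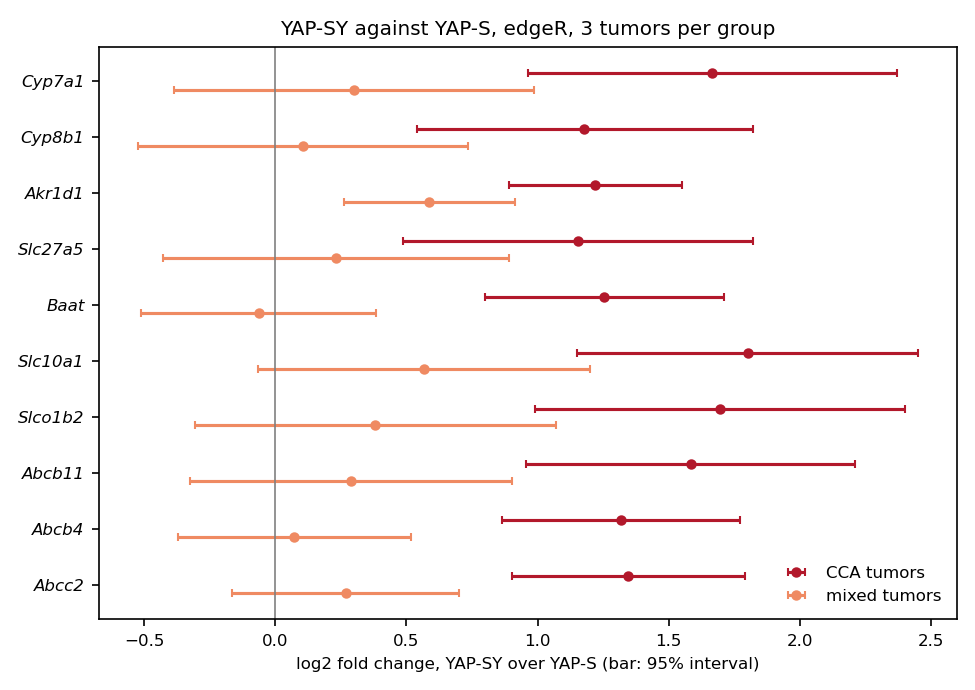
Log2 fold change of YAP-SY over YAP-S with 95% intervals for the 10 genes in CCA tumors and in mixed tumors (3 tumors per group). All 10 intervals of the CCA tumors lie above 0, and those of the mixed tumors cross 0 except that of Akr1d1.

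The difference between these effects, CCA minus mixed, was tested itself. It was positive for all 10 genes, from 0.63 (Akr1d1) to 1.37 (Cyp7a1), and 4 passed the threshold, where 5.02% of all tested genes passed in that direction. The 4 were Baat (1.32, SE 0.29, adjusted p = 0.014), Abcb4 (1.25, SE 0.29, adjusted p = 0.0167), Abcc2 (1.08, SE 0.28, adjusted p = 0.0265) and Abcb11 (1.30, SE 0.40, adjusted p = 0.0471). Of the other 6, Slc10a1 (1.24), Slco1b2 (1.31) and Cyp7a1 (1.37) had differences as large but wider errors (SE 0.41 to 0.45, adjusted p = 0.06, 0.0646 and 0.0571). Leaving out 1 tumor at a time left 1 to 6 genes called, the fewest without YAP-S-Mixed tumor 2. By library size alone 2 of the 10 passed (0.819% of all genes upwards), by DESeq2 9 (9.3%) and relative to hepatocyte RNA 0 (0.191%), where Akr1d1 turned to −0.32.

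CCA and mixed tumors were also compared within each YAP form. In YAP-SY tumors all 10 genes were higher in CCA than in mixed tumors on the TMM scale, by 0.22 (Akr1d1) to 0.94 (Slc10a1). None passed, where 0.207% of all genes passed upwards. By edgeR's test 7 of the 10 had an unadjusted p under 0.05, as had 3951 of all 18318 genes. DESeq2 called 4 of the 10 (2.46% of all genes upwards). In 7 of the 10 the groups did not overlap, against 20.1% of all tested genes. In YAP-S tumors all 10 were lower in CCA than in mixed tumors, by 0.30 (Slc10a1) to 0.71 (Baat), and none passed. There edgeR called 0 of 18318 genes, and an unadjusted p under 0.05 was found for 3636 of them and for 4 of the 10. DESeq2 called 1514 genes, with 3 of the 10 (2.61% of all genes downwards). In 4 of the 10 (Abcb4, Abcc2, Akr1d1 and Baat) the YAP-S groups did not overlap, against 37.8% of all genes. These directions depend on the scaling: by library size alone Akr1d1 turned to −0.08 in YAP-SY tumors, and relative to hepatocyte RNA Abcc2 and Akr1d1 turned there, while Slc10a1, Cyp7a1, Akr1d1 and Slc27a5 turned in YAP-S tumors.

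Across the 12 tumors, which share the 4 groups and are not a single population, the log2 CPM of each gene correlated with the other 9 by a mean Pearson r of 0.78 to 0.91, highest for Abcb11 and Abcb4 (0.91 each) and lowest for Akr1d1. Among 10472 genes outside the lists with a mean of at least 5 CPM, those most like the mean profile of the 10 were C2cd2, Dmgdh and Ugt1a6a (r = 0.995 each over 12 tumors), Ugt1a7c (0.994), Ugt1a6b and Dnase2b (0.993 each) and Sec14l2 and Mettl7a1 (0.992 each). Dmgdh, a mitochondrial enzyme that breaks down dimethylglycine, averaged 578 CPM in YAP-SY-CCA, 386 in YAP-SY-Mixed, 241 in YAP-S-CCA and 335 in YAP-S-Mixed. The 3 Ugt1a genes share exons, so their counts are not separate measurements. Most like Akr1d1 were Rufy3 (r = 0.985), Anks4b (0.973), Ddx46 and Fmo1 (0.968 each) and Cd59a (0.967).

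In cultured SB1 cells the 10 genes were close to the limit of counting. Abcc2 had 15, 34 and 19 counts in the 3 SB1 samples, Baat had 17, 15 and 9, and Abcb4 had 9, 3 and 7. The other 7 genes had 0 to 4 counts per sample, where 3 counts correspond to 0.0982 to 0.118 CPM. All 10 had a mean below 1 CPM, while 30.9% of the genes in that table had a mean of at least 1 CPM. The lowest value of any of the 10 genes in a tumor was 48.7 CPM, for Cyp7a1 in YAP-S-Mixed tumor 7. Intervals and limits of this kind cover counting error only, and the tables were made separately, so the levels are set side by side without a test.

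**Figure D5:**
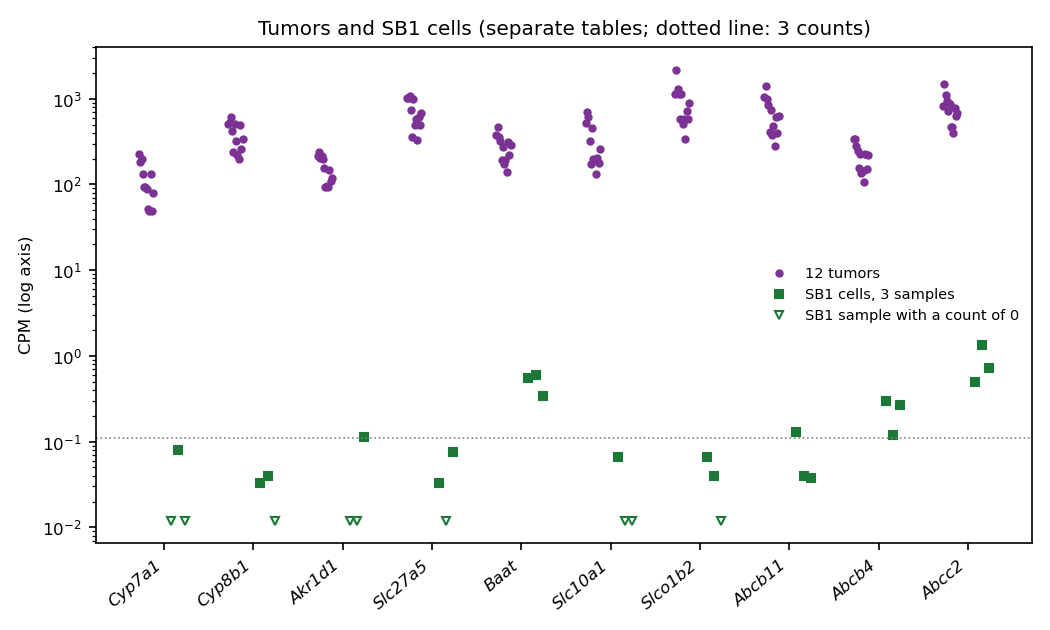
CPM of the 10 genes on a log axis in the 12 tumors (circles) and in 3 samples of SB1 cells (squares; open triangles at the foot mark samples with 0 counts). The dotted line is the level of 3 counts in SB1 samples; tumor values lie at 48.7 CPM or above, and SB1 values at 1.34 CPM or below.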

How the data were processed

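Tumor nodules and cell lines were sequenced from total RNA with an mRNA library kit, per the labels' protocols. The authors deposited corrected gene counts for the 12 tumors and raw gene counts for SB1 cells; what was corrected is not given in the sources used here. Per the submitters' processing notes, STAR and build mm10 were used, and versions are not given. The SB1 table holds 3 further columns that match no sample label and were not used, and SY1 cells were not analysed here. The 10 genes and all gene lists were chosen with earlier results of these data known.

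Genes were filtered with filterByExpr by group, and the 12 tumors entered 1 fit with a term per group in edgeR 4.0.16 (R 4.3.3) with TMM scaling. CPM refers to TMM-scaled libraries in tumors and to total counts in SB1 cells, and RPKM uses the gene length in the tumor table. The 5 tests were quasi-likelihood F-tests, and the steps were tested on simulated data. Hepatocyte scaling set each tumor's factor from the mean log2 CPM of 15 secreted protein genes. Other settings used limma 3.58.1, DESeq2 1.42.0, other size factors, other filters, fits of 2 groups, a replicate block and tumors left out in turn. Low-count ratios carry exact 95% counting intervals.

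Named were all 10 genes; from each pathway list the 4 smallest p-values past the threshold between CCA groups, those past it against the list's majority, and up to 3 past it in each other comparison; from marker lists the sums, with Alb and Spp1; and the 8 and 5 genes most alike in profile. Krt19 and the levels of Dmgdh were chosen after their values were seen. Leaving tumors out under hepatocyte scaling and scaling to zonal markers were added after the data were seen. Of the deposited gene symbols, 27 had been turned into dates. Results of some genes named by this rule are not reported here.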

Additional observations from a re-analysis of the deposited data

Results flagged for a closer look

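By edgeR's test of the difference between effects (YAP-SY over YAP-S, CCA minus mixed, log2 scale), 2788 of 18318 genes differed. Described here are 15 of them, the 4 called among the 10 bile acid genes and 11 picked from the pathway lists by smallest p. The 4 were Baat (1.32), Abcb11 (1.30), Abcb4 (1.25) and Abcc2 (1.08). Over the 12 fits that each left out 1 tumor, Baat kept its call in all and Abcb4 lost it in 1, while Abcc2 lost it in 6 and Abcb11 in 8.

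Of the 11, Cyp7b1, the oxysterol 7α-hydroxylase of the alternative pathway, had the largest positive difference (2.14, adjusted p = 0.0133). It averaged 360.4 ± 120 CPM in YAP-SY-CCA and 114 ± 39.6 CPM in YAP-S-CCA, against 154 ± 52.6 CPM in YAP-SY-Mixed and 214 ± 58.2 CPM in YAP-S-Mixed (SD, n = 3 each), and its call held relative to hepatocyte RNA (1.30, adjusted p = 0.0157). The others were Slc27a2 (1.42), Ceacam1 (1.36), Hnf4a (1.21), Abca1 (1.10), Dpp4 (1.03), Tmem30a (0.94), Hsd17b4 (0.83) and Rdx (0.66), of which none passed relative to hepatocyte RNA. Gpbar1 (−5.88) and Vdr (−5.56) differed the other way; they had 0 to 4 counts in YAP-SY-CCA tumors, so these fitted values depend on the prior count.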

How the results depend on the processing

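The rise of the 10 genes in YAP-SY-CCA kept its direction under every setting run, with 9 to 10 genes called when a tumor was left out; relative to hepatocyte RNA 3 were called (1 to 4 with a tumor left out). All genes called there numbered 7171, 11930 by hepatocyte scaling and 5121 to 6869 with a tumor left out. For CCA minus mixed, 4 of the 10 genes became 2 by library size alone, 0 by hepatocyte scaling, 9 by DESeq2, 7 with no filter and 1 to 6 with a tumor left out. All genes called in that test numbered 2788, against 4330, 7956, 4231 (library size, hepatocyte scaling, DESeq2) and 1058 to 3077. In mixed tumors DESeq2 called 11 genes and edgeR 0.

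For CCA against mixed in YAP-SY, 532 genes became 2006 by library size alone, 3354 by hepatocyte scaling, 1834 by DESeq2 (4 of the 10), 42 by limma-voom, 46 with the replicate block, 859 with no filter, 0 with the 2 groups alone and 0 to 595 with a tumor left out (0 to 1 of the 10). In YAP-S the 0 genes became 117 with DESeq2 size factors, 711 by library size alone, 137 with upper quartile factors, 2397 by hepatocyte scaling, 1514 by DESeq2 (3 of the 10), 758 by limma-voom, 991 with the block, 570 with no filter, 269 with a stricter filter and 2393 with the 2 groups alone (2 of the 10). The cause was not tested.

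Directions turned as follows. By hepatocyte scaling these were, in YAP-SY-CCA over YAP-S-CCA, Acox2 (−0.127), Hsd17b4 (−0.0528) and Rdx (−0.0907); in mixed tumors Abcb4 (−0.0268) and Cyp8b1 (−0.0136); in CCA minus mixed Akr1d1 (−0.323), Hsd17b4 (−0.0834) and Rdx (−0.255). For CCA over mixed they were Abcc2 (−0.013) and Akr1d1 (−0.272) in YAP-SY, and Slc10a1 (0.143), Cyp7a1 (0.0181), Akr1d1 (0.0509) and Slc27a5 (0.0853) in YAP-S; Akr1d1 in YAP-SY turned by library size alone too (−0.0778). With a tumor left out, mixed tumors ranged from −0.0943 to 0.249 for Abcb4, −0.232 to 0.119 for Baat, −0.13 to 0.392 for Cyp8b1 and −0.105 to 0.546 for Slc27a5.

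Tumors numbered 3, 5 and 9 occur in both YAP forms; their deviations correlated by 0.18, 0.35 and 0.09, which does not establish pairing. With the replicate block (consensus correlation 0.22) the CCA call held for all 10 genes, and in CCA minus mixed Slc10a1 was called both with it (1.31) and by limma-voom without it (1.39). In SB1 cells 7 of the 10 genes had 4 counts or fewer per sample, so their levels carry wide counting error.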

Other observations

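Zonal hepatocyte markers moved with the bile acid genes in CCA tumors. Of 10 periportal markers 7 rose in YAP-SY-CCA against YAP-S-CCA (median log2 fold change 1.31), and of 10 pericentral markers 6 rose (median 0.86). Among all tested genes 18.3% rose. Without YAP-SY-CCA tumor 6, 2 pericentral markers rose (13.8% of all tested genes), and without YAP-S-CCA tumor 5 also 2 (11.2%). Relative to hepatocyte RNA, 0 periportal markers rose and 1 fell, and 1 pericentral marker rose. Under that scaling 0.841% of all tested genes rose and 64.3% fell.

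SB1 cells held RNA of some genes of the other lists while the 10 genes had a mean below 1 CPM. A mean of at least 1 CPM was reached by 30.9% of all genes in SB1 cells. In the lists it was reached by 12 of 16 other synthesis enzymes, 10 of 21 other transporters, 12 of 21 regulators and all 11 canalicular genes. Cholangiocyte markers reached it in 14 of 17, periportal markers in 3 of 10 and pericentral markers in 7 of 10. Fibroblast markers did so in 7 of 10, endothelial markers in 1 of 10 and those of macrophages and lymphocytes in 2 of 10. Of the hepatocyte secreted proteins 9 of 15 did so, with Alb at 779 CPM and Trf at 613 CPM. The lowest tumor values of these genes were 33890 CPM for Alb and 10330 CPM for Trf, set beside them without a test. Levels within a list differed widely. Among the other synthesis enzymes, Hsd17b4 had a mean of 103 CPM in SB1 cells and Slc27a2 one of 0.0477 CPM.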
